A study of Homo sapiens with 9 samples.

Results

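The Tribbles genes TRIB1 and TRIB2, the FOXO transcription factor genes FOXO1, FOXO3 and FOXO4, the arrestin-fold genes TXNIP, ARRDC3 and ARRDC4, and the ubiquitin ligase adaptor gene KLHL24 were followed in HT29 colon cancer cells. These 9 genes were found by their symbols among 11664 distinct gene names in the deposited data, and each of the 9 was listed in at least 1 of 3 pairwise comparisons. HT29, a human colorectal adenocarcinoma line, was sequenced as 9 libraries of total RNA, 3 in each of 3 groups. The control group (Con) was starved of serum for 24 h by its labels, while the methods of the study give other lengths of starvation for the cancer cells. The ESC CM group had 24 h with conditioned medium (CM) of stromal cells from epiploic adipose tissue (EPAT), the fat appendages of the colon, which the labels call an adipose stromal cell control. The CRC-MPS CM group had 24 h with CM of a microphysiological system, labelled as adipose tissue, in which EPAT and GFP-tagged HT29 cells were held between sheets of the stromal cells. By the methods of the study the EPAT was from obese donors and the cultures that gave CM were kept in DMEM with fetal bovine serum, which Con lacked. Their medium was then diluted with a serum-free medium of another kind (McCoy's) before use. Secreted products, serum and the base medium carried over therefore cannot be told apart in either comparison with Con. The CRC-MPS CM may also carry products of the tagged cancer cells, which cannot be told apart from those of the fat.

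Tribbles proteins are pseudokinases that bring the ubiquitin ligase COP1 to substrates such as C/EBP factors, and TRIB2 is known as a repressor of FOXO proteins in melanoma. FOXO factors turn on genes of cell cycle arrest, cell death, stress resistance and insulin signaling in starved cells, and AKT, active when growth factors are present, phosphorylates them and keeps them out of the nucleus. TXNIP and ARRDC4 share an arrestin fold, lower glucose uptake and are induced by the glucose sensor MondoA through carbohydrate response elements, which are paired E-boxes, while TXNIP also binds thioredoxin and ARRDC3 brings NEDD4-type ligases to membrane receptors.

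Promoters of 4 members are printed because a FOXO motif, an E-box or a paired E-box lay in them. Each is 300 bases from RefSeq (build GRCh38.p14), from 250 bases before to 50 after the start of the gene, 5′ to 3′ on the strand of the gene, and capitals mark the motif matches. The motifs searched on both strands were GTAAACA (FOXO), CACGTG (E-box) and a paired E-box, read as CACGNG, then any 5 bases, then CNCGNG. Positions count from 1 at the first transcribed base and from -1 before it.
TXNIP: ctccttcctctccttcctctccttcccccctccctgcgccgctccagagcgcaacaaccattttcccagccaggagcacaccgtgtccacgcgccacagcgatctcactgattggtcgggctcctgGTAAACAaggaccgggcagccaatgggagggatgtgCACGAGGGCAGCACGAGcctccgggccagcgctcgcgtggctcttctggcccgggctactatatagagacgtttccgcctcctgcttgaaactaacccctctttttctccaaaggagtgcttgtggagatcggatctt
ARRDC4: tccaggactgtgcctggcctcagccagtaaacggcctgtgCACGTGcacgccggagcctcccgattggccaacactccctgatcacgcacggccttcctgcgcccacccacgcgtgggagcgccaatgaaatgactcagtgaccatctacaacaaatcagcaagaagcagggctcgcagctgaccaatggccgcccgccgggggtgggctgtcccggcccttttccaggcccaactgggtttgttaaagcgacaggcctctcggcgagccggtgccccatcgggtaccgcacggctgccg
TRIB2: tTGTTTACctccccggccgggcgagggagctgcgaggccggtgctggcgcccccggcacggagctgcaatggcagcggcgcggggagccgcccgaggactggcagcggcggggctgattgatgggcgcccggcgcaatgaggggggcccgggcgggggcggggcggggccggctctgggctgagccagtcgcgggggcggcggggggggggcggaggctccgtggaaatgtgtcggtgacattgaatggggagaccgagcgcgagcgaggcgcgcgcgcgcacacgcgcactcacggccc
FOXO4: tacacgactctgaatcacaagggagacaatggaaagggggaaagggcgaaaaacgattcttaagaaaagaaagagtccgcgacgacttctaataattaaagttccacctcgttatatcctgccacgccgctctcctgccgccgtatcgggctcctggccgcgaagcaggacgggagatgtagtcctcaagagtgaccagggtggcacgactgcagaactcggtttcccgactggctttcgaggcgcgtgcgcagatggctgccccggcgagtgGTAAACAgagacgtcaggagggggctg
The TXNIP promoter (chr1:145996530-145996829, minus strand) held GTAAACA from -124 to -118 and a paired E-box from -88 to -72. The ARRDC4 promoter (chr15:97960453-97960752, plus strand) held CACGTG from -210 to -205. GTAAACA was found from -249 to -243 in the TRIB2 promoter (chr2:12716686-12716985, plus strand), where it reads on the opposite strand, and from 24 to 30 after the RefSeq start of FOXO4 (chrX:71095601-71095900, plus strand). The GENCODE start of FOXO4 lies downstream of that whole window, so the annotations disagree on whether this match is transcribed. The RefSeq table held 8 of the 9 members, without TRIB1, and none of these letters was in the windows of FOXO1, FOXO3, ARRDC3 or KLHL24. Over 35116 promoters of the same length, GTAAACA was in 3.42%, CACGTG in 7.26% and the paired E-box in 0.501%. A match is a description of sequence only, and no binding was measured.

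**Figure D1:**
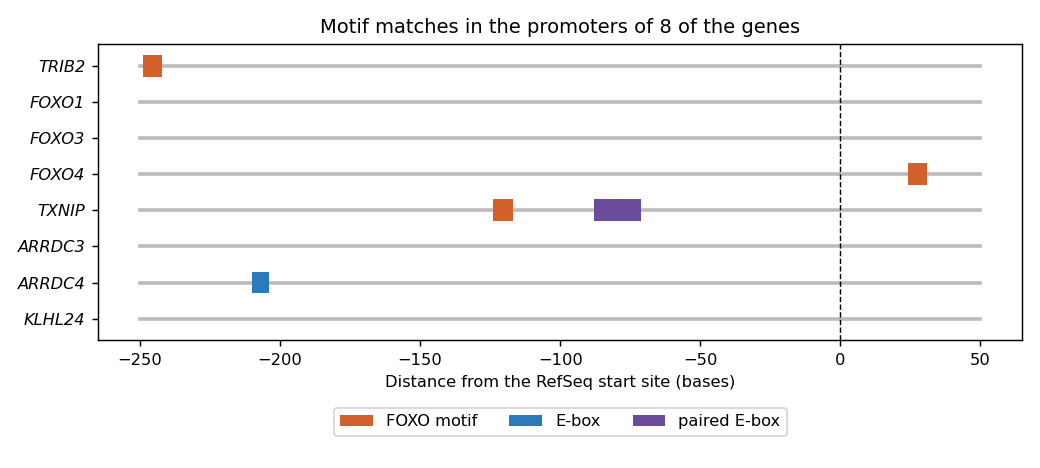
Positions of the motif matches in the promoters of 8 members, on an axis of distance from the RefSeq start site in bases (dashed line at the start). Each grey line is a window of 250 bases before to 50 after the start, and coloured bars are matches: TXNIP has a FOXO motif and a paired E-box, ARRDC4 an E-box, TRIB2 and FOXO4 a FOXO motif each, and the other 4 have none.

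The unit of the values was not stated, and they were read as TPM. TPM is a relative transcript level scaled for transcript length and library size, which keeps no record of read depth. Each comparison listed only genes that the authors' own test put at p under 0.05, so a member that was not listed has no value there. The listed genes summed to 747343 to 752614 TPM per library for CRC-MPS CM against Con, and root mean square deviations of a library from its group mean were 0.0917 to 0.165 (log2) over the 3 comparisons. Library 1 of CRC-MPS CM deviated most in both of its comparisons (0.146 and 0.165), and without it 85 genes were called between the CM in place of 38. Of 13 markers of colon epithelium, 12 were listed against Con in each CM. Of 9 stromal markers only COL1A1 was listed in any comparison, at no more than 2.61 TPM in any library of that comparison, and of 6 adipocyte markers only CIDEC was listed, higher in Con than in both CM. Since listing rests on the authors' p, a marker that was not listed may still be expressed. Fewer cells of a type and less RNA per cell cannot be told apart in these bulk samples. The labels number the libraries of a group as biological 1 to 3 without saying whether they came from separate cultures, so p-values measure the spread between these libraries.

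Against Con, both CM came with lower TRIB1, FOXO3, TXNIP and ARRDC4, and TRIB2 was the only member called higher, in CRC-MPS CM. A gene was called changed when limma on log2(TPM + 1) gave a Benjamini-Hochberg adjusted p under 0.05, taken over 20000 genes, with a fold over 1.5 (0.585 on the log2 scale). For CRC-MPS CM against Con, 8 of the 9 members were listed, 1 was called higher and 5 lower, against 20.3% of the 10019 listed genes called higher and 20.1% called lower. The median log2 fold change of the listed members was -0.66, and that of all listed genes was -0.01. All 8 listed members had groups that did not overlap, as did 89.4% of all listed genes.

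In ESC CM against Con, 8 members were listed, none was called higher and 5 were called lower, where 17.6% of the 10007 listed genes were called higher and 20.1% lower. At an unadjusted limma p under 0.05, 1 member was higher and 6 were lower. The member median was -0.79, beside -0.05 over all listed genes, and 7 members did not overlap, beside 90.6% of all listed genes. Both of these comparisons use the same 3 Con libraries. Between the CM, 5 members were listed, and TRIB2 alone was called, higher in CRC-MPS CM, where 1.06% of the 2835 listed genes were called higher and 0.282% lower. The member median between the CM was 0.22, beside 0.15 over all listed genes. The groups of the 5 listed members did not overlap, nor did those of 63.6% of all genes listed between the CM. An exact permutation test of 3 against 3 libraries cannot go below 0.1, which is the value for every listed member without overlap.

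**Figure D2:**
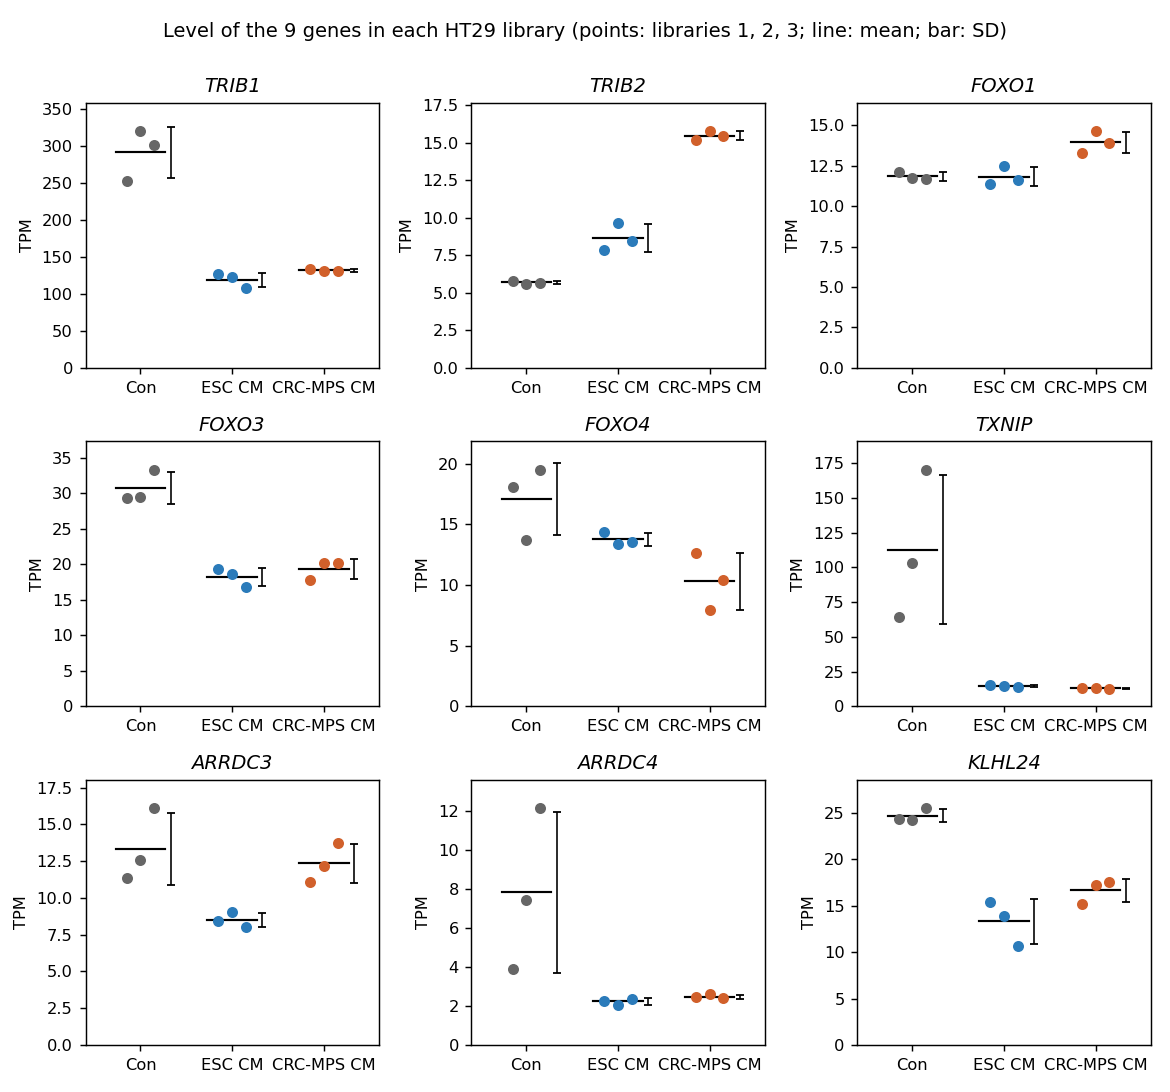
TPM of each member in every library of the 3 groups, with the group mean as a line and the SD as a bar, each axis starting at 0. TRIB2 rises from 5.69 TPM in Con to 15.5 TPM in CRC-MPS CM, while TXNIP and ARRDC4 spread over the Con libraries and sit close together in both CM.

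**Figure D3:**
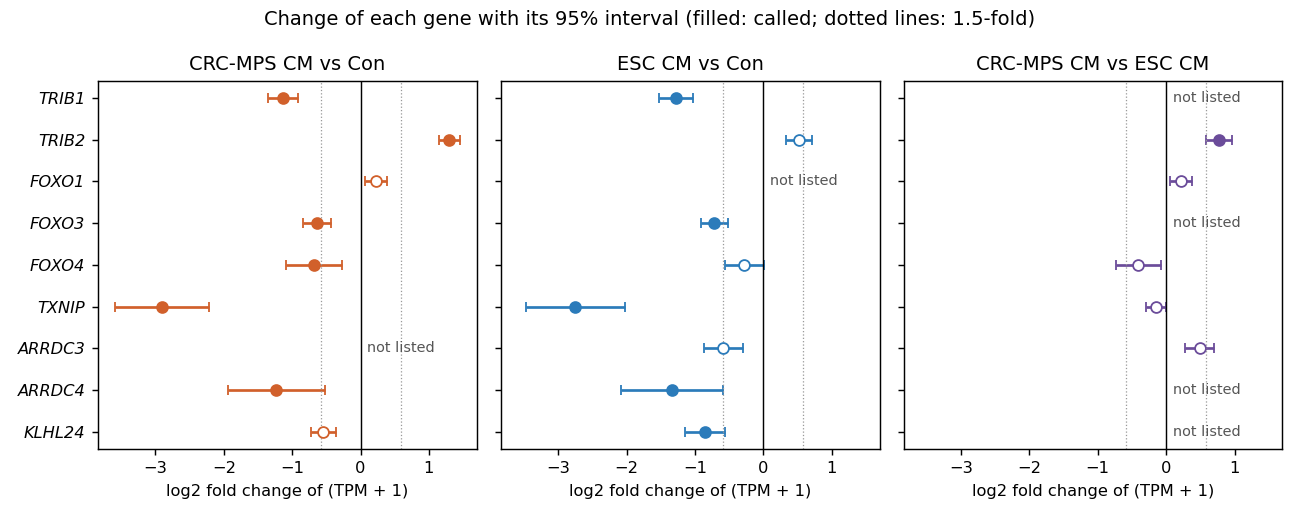
Log2 fold change of (TPM + 1) of each member with its 95% interval from limma in the 3 comparisons. Filled points were called and open points were not, dotted lines stand at 1.5-fold, and members without a value are marked as not listed. TRIB2 is the only filled point right of 0 against Con in CRC-MPS CM, and TXNIP lies farthest left in both CM.

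TRIB2 (chr2:12716889-12742734, plus strand, GRCh38) rose with CRC-MPS CM above both other groups. Its level was 5.82, 5.59 and 5.67 TPM in Con, 7.84, 9.67 and 8.46 TPM in ESC CM, and 15.2, 15.8 and 15.4 TPM in CRC-MPS CM. The 3 groups did not overlap and stood in the order Con, ESC CM, CRC-MPS CM. The group means were 5.69 ± 0.115, 8.66 ± 0.935 and 15.5 ± 0.279 TPM (SD, n = 3 each). CRC-MPS CM was 2.72 times Con, a log2 fold change of 1.30 with SE 0.0643 (limma, adjusted p = 1.97e-05). ESC CM was 1.52 times Con by the means, but the log2 fold change on the log2(TPM + 1) scale was 0.53 with SE 0.0797 (limma, adjusted p = 0.00151), short of the fold needed for a call. That scale understates the change of low genes, and with a pseudocount of 0.1 the same difference was 0.59 and was called.

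Between the CM, TRIB2 was 1.79 times higher with CRC-MPS CM (log2 fold change 0.78, SE 0.0835, 95% interval 0.58 to 0.97, limma adjusted p = 0.0185). This call had little margin. It was lost without library 2 of CRC-MPS CM (limma, adjusted p = 0.0826) or library 3 of CRC-MPS CM (0.0831). It was also lost without library 1 of ESC CM (0.0631) or library 3 of ESC CM (0.0917). Without library 1 of CRC-MPS CM (limma, adjusted p = 0.0374) or library 2 of ESC CM (0.04075) it was still called. Over all fits that left out 1 library, the log2 fold change stayed between 0.71 and 0.85. With replicate number as a block in the fit, the TRIB2 call was also lost (limma, adjusted p = 0.0730).

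TRIB1 (chr8:125430321-125438405, plus strand), which recruits C/EBP factors to COP1, was the most abundant member in every group and moved the other way. Its level was 253.5, 320.3 and 302.0 TPM in Con, 126.8, 122.4 and 108.3 TPM in ESC CM, and 133.9, 131.1 and 130.9 TPM in CRC-MPS CM. Every Con library was above every CM library by at least 1.89 times. With means of 292 ± 34.5, 119 ± 9.68 and 132 ± 1.67 TPM (SD, n = 3 each), TRIB1 fell to 0.452 of Con in CRC-MPS CM (log2 fold change -1.13, SE 0.0964, limma adjusted p = 9.25e-05) and to 0.409 of Con in ESC CM (-1.28, SE 0.106, adjusted p = 0.000122). TRIB1 was not listed between the CM.

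The other Tribbles gene, TRIB3, known as a stress-induced inhibitor of AKT, went down with TRIB1. It averaged 314 ± 29.2 TPM in Con and 150 ± 18.6 TPM in CRC-MPS CM (log2 fold change -1.06, limma adjusted p = 0.000241), and 92.1 ± 37.4 TPM in ESC CM (-1.85, adjusted p = 0.00237). In a list of 10 Tribbles and FOXO relatives and Tribbles partners, 6 were listed for CRC-MPS CM against Con and TRIB3 alone was called, and 7 were listed for ESC CM, where TRIB3 and CEBPB, a C/EBP factor gene, were called lower. CEBPB had 59.0 ± 7.64 TPM in ESC CM and 110 ± 14.5 TPM in Con, a log2 fold change of -0.88, and in CRC-MPS CM it was not called (-0.38, limma adjusted p = 0.0267). COP1 was not listed in any comparison.

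Of the FOXO genes, FOXO3 fell with both CM, FOXO4 fell with CRC-MPS CM, and FOXO1 was not called. FOXO3 (chr6:108559835-108684774, plus strand) had 29.3, 29.5 and 33.3 TPM in Con, 19.3, 18.6 and 16.8 TPM in ESC CM, and 17.7, 20.3 and 20.2 TPM in CRC-MPS CM. All Con libraries were above all CM libraries, and the libraries of the CM overlapped each other. FOXO3 averaged 30.7 ± 2.26 TPM in Con, 18.2 ± 1.30 TPM in ESC CM (log2 fold change -0.71, SE 0.0808, limma adjusted p = 0.000416) and 19.4 ± 1.43 TPM in CRC-MPS CM (-0.64, SE 0.0869, adjusted p = 0.000728). The CRC-MPS CM call was near the fold threshold: the log2 fold change was -0.58, and the call was lost, without library 1 of CRC-MPS CM or without library 3 of Con. FOXO3 has a near-identical pseudogene copy, FOXO3B, so its reads may be split between them.

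FOXO4 (chrX:71096197-71103535, plus strand) had the widest range of TPM within Con and within CRC-MPS CM of the FOXO1, FOXO3 and FOXO4 genes. Its level was 18.1, 13.8 and 19.5 TPM in Con, 14.4, 13.4 and 13.5 TPM in ESC CM, and 12.7, 7.93 and 10.4 TPM in CRC-MPS CM. ESC CM overlapped Con through library 2 of Con, and CRC-MPS CM lay below both groups by a small margin. The fall from 17.1 ± 2.99 TPM in Con to 10.3 ± 2.36 TPM in CRC-MPS CM was called (log2 fold change -0.68, SE 0.176, limma adjusted p = 0.0150). It was no longer called without library 2 of CRC-MPS CM (log2 fold change -0.52), library 1 of Con (adjusted p = 0.0506) or library 3 of Con (0.0530). ESC CM, at 13.8 ± 0.520 TPM, was not called against Con (-0.28, limma adjusted p = 0.126, 95% interval -0.56 to 0.01), and neither was CRC-MPS CM against ESC CM (-0.41, adjusted p = 0.421, 95% interval -0.74 to -0.07 before adjustment over genes).

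FOXO1 (chr13:40469953-40666597, minus strand) had 12.1, 11.7 and 11.7 TPM in Con, 11.4, 12.5 and 11.6 TPM in ESC CM, and 13.3, 14.6 and 13.9 TPM in CRC-MPS CM. The CRC-MPS CM libraries were the highest 3, by a margin of 1.06 times over ESC CM. CRC-MPS CM was 1.18 times Con (log2 fold change 0.22, SE 0.0690, limma adjusted p = 0.0349), too small a fold for a call, and 1.18 times ESC CM (0.22, adjusted p = 0.363). All genes listed between the CM had a median log2 fold change of 0.15, and with median-ratio scaling of the libraries the FOXO1 value was 0.13. FOXO1 was not listed for ESC CM against Con. FOXO6, the FOXO gene best known from brain, was under 1 TPM on average in all groups and was not called (log2 fold change -0.47 for CRC-MPS CM and -0.48 for ESC CM).

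TXNIP (chr1:145992435-145996600, minus strand) had the largest change of the members in both CM. Its level was 64.5, 103 and 170 TPM in Con, 15.3, 14.3 and 14.3 TPM in ESC CM, and 13.3, 13.2 and 12.8 TPM in CRC-MPS CM. Con was high in all 3 libraries and the lowest Con library was 4.20 times the highest ESC CM library and 4.84 times the highest CRC-MPS CM library. The mean fell from 113 ± 53.5 TPM in Con to 13.1 ± 0.282 TPM in CRC-MPS CM, 8.59-fold lower (log2 fold change -2.90, SE 0.296, limma adjusted p = 0.000198), and to 14.6 ± 0.562 TPM in ESC CM, 7.68-fold lower (-2.75, SE 0.308, adjusted p = 0.000399). Leaving out any 1 library kept the log2 fold change between -3.24 and -2.55 for CRC-MPS CM and between -3.09 and -2.40 for ESC CM. Between the CM the log2 fold change was -0.15 with a 95% interval of -0.29 to 0.0031 (limma, adjusted p = 0.617).

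ARRDC4 (chr15:97960698-97973838, plus strand) was also highest in Con, at a lower level. It had 3.90, 7.45 and 12.1 TPM in Con, 2.26, 2.06 and 2.38 TPM in ESC CM, and 2.45, 2.60 and 2.39 TPM in CRC-MPS CM. As with TXNIP, the 6 CM libraries lay close together and below every Con library. The mean of 7.83 ± 4.14 TPM in Con fell to 2.48 ± 0.105 TPM in CRC-MPS CM (log2 fold change -1.23, SE 0.304, limma adjusted p = 0.0125) and to 2.23 ± 0.164 TPM in ESC CM (-1.33, SE 0.317, adjusted p = 0.0119). ARRDC4 was not listed between the CM.

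The Con libraries differed from each other in TXNIP and ARRDC4 far more than in most genes listed for CRC-MPS CM against Con. Over 8915 of these genes with at least 1 TPM in every Con library, the highest Con library was a median of 1.15 times the lowest. Listing on the authors' p favors genes with a small spread within groups, so expressed genes that were not listed may spread more. The same ratio was 2.64 for TXNIP, with 20 genes above it, and 3.11 for ARRDC4, with 8 above it. For both genes library 1 of Con was lowest and library 3 highest. Without library 3 of Con the ARRDC4 log2 fold change was -0.89 for CRC-MPS CM and -0.99 for ESC CM, and without library 1 it was -1.60 and -1.70, with every one of these called. What sets this spread was not tested.

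ARRDC3 (chr5:91368724-91383359, minus strand), which drives β-adrenergic receptors and integrin β4 to ubiquitination, had 11.4, 12.6 and 16.1 TPM in Con, 8.43, 9.03 and 8.04 TPM in ESC CM, and 11.1, 12.2 and 13.7 TPM in CRC-MPS CM. ESC CM was the low group, below every library of the other groups. For ESC CM against Con the means were 8.50 ± 0.499 and 13.4 ± 2.45 TPM (log2 fold change -0.58, SE 0.121, limma adjusted p = 0.00637), which fell just short of the fold needed. The same difference was called without library 1 of Con (-0.68), library 2 of Con (-0.62) or library 2 of ESC CM (-0.62). CRC-MPS CM was 1.45 times ESC CM (log2 fold change 0.49, SE 0.0893, 95% interval 0.28 to 0.69, adjusted p = 0.0897) and was not listed against Con.

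KLHL24 (chr3:183635568-183684477, plus strand), an adaptor of CUL3 ubiquitin ligases known for keratin turnover in skin, fell with ESC CM. It had 24.3, 24.3 and 25.5 TPM in Con, 15.4, 13.9 and 10.6 TPM in ESC CM, and 15.2, 17.3 and 17.5 TPM in CRC-MPS CM. Every CM library was below every Con library, and the CM groups overlapped each other. ESC CM, at 13.3 ± 2.46 TPM against 24.7 ± 0.698 TPM in Con, was called (log2 fold change -0.86, SE 0.125, limma adjusted p = 0.00126), whereas CRC-MPS CM, at 16.7 ± 1.28 TPM, passed on p but not on fold (-0.54, SE 0.0785, adjusted p = 0.000951). KLHL24 was not listed between the CM. Of 3 ligase partners, CUL3 and RBX1 were listed against Con, neither was called, and both were at an unadjusted limma p under 0.05 on the higher side in each CM.

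The order of the levels differed between groups, with Con, ESC CM and CRC-MPS CM levels drawn from tables that were selected separately, so the orders were not tested. In Con the means ran from TRIB1 and TXNIP down through FOXO3, KLHL24, FOXO4, ARRDC3, FOXO1 and ARRDC4 to TRIB2. From FOXO4 downwards each neighbour in Con overlapped the next. TRIB2 was rank 9 of 9 in Con, rank 7 in ESC CM and rank 4 in CRC-MPS CM, where its libraries overlapped those of KLHL24 just above it and lay over those of FOXO1 below it. TXNIP went from rank 2 in Con to rank 3 in ESC CM, where it overlapped FOXO4, and to rank 6 in CRC-MPS CM, where it overlapped ARRDC3.

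Genes that FOXO factors are known to turn on were lower in both CM or were not called. Of 28 such genes, 23 were listed for CRC-MPS CM against Con, 12 were called lower and none higher, where 20.1% of all listed genes were called lower and 20.3% higher, with a median log2 fold change of -0.63 beside -0.01 over all listed genes. For ESC CM, 23 were listed, 13 were called lower and none higher (20.1% and 17.6% of all listed genes), with a median of -0.71 beside -0.05. At an unadjusted limma p under 0.05, 3 were higher in CRC-MPS CM and 1 in ESC CM. CDKN1A, the p21 cell cycle inhibitor, had the largest fall on the log2(TPM + 1) scale, from 110 ± 14.0 TPM in Con to 32.6 ± 4.56 TPM in CRC-MPS CM (log2 fold change -1.73) and 18.2 ± 7.16 TPM in ESC CM (-2.60). CDKN1A, BBC3, which encodes the death factor PUMA, and TP53INP1 are also targets of p53, so the list is not specific to FOXO factors. BBC3 fell by 1.53 on the log2 scale in ESC CM, and TP53INP1 fell by 1.64 on the log2 scale in CRC-MPS CM. PIK3IP1, an inhibitor of PI3K, had 3.36 ± 0.669 TPM in Con and 0.394 ± 0.0831 TPM in CRC-MPS CM (-1.63), and SELENOP, a selenium carrier, had 3.92 ± 0.840 TPM in Con and 0.544 ± 0.153 TPM in ESC CM (-1.66). By the ratio of means these low genes fell further than CDKN1A, to 0.117 of Con for PIK3IP1 in CRC-MPS CM and 0.139 for SELENOP in ESC CM, against 0.296 and 0.166 for CDKN1A.

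Between the CM, 7 of these targets were listed and none was called, with 3 higher and 3 lower at an unadjusted limma p under 0.05. CDKN1A was higher in CRC-MPS CM (32.5 against 18.1 TPM) with a log2 fold change of 0.88 that did not pass (limma, adjusted p = 0.338). Against Con, proliferation markers moved the opposite way to the targets, and all 10 on the list were called higher in each CM. Their summed level was 1595 to 1693 TPM in CRC-MPS CM and 1606 to 1725 TPM in ESC CM against 599 to 730 TPM in Con. The part of proliferation in the FOXO and TXNIP results was not tested. CCNB1, a mitotic cyclin, was 3.28 times Con in CRC-MPS CM.

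**Figure D4:**
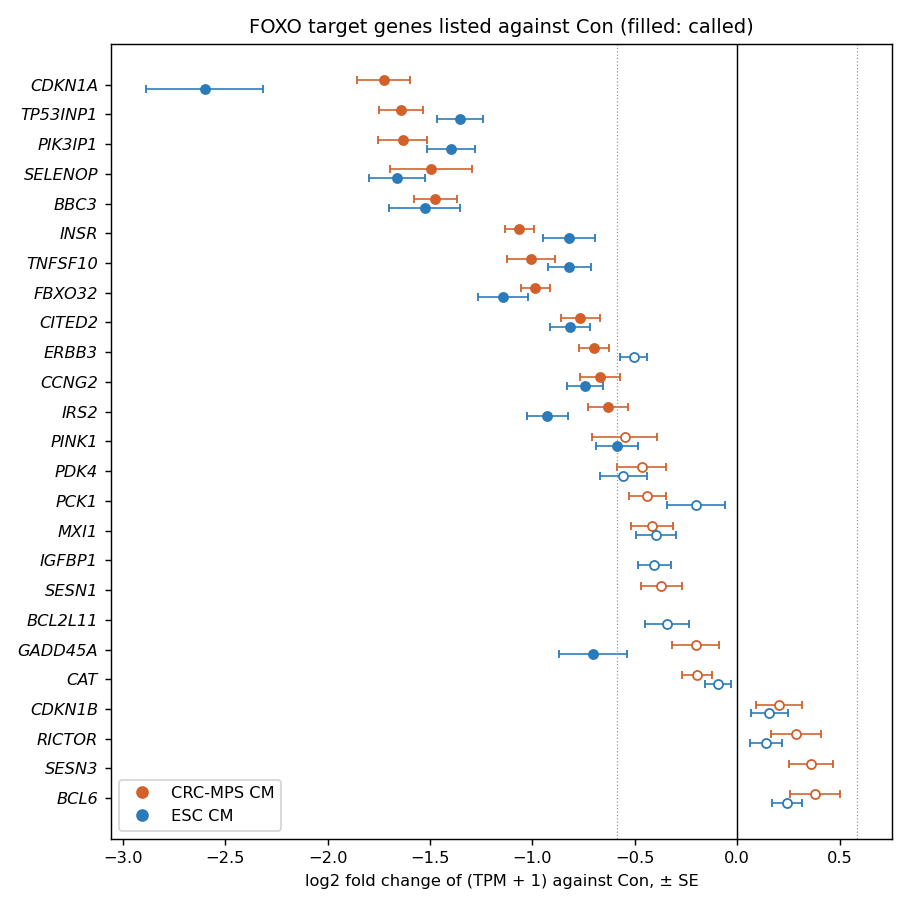
Log2 fold change of (TPM + 1) against Con, with SE from limma, of the FOXO target genes listed in either CM. Orange points are CRC-MPS CM, blue points are ESC CM, filled points were called, and dotted lines stand at 1.5-fold. The filled points, 12 for CRC-MPS CM and 13 for ESC CM, are all left of 0, and CDKN1A lies farthest left.

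PI3K, AKT and other regulators of FOXO proteins were called at or below the shares over all listed genes. Of 25, 16 were listed for CRC-MPS CM, with 3 called higher and 1 lower (20.3% and 20.1% of all listed genes). For ESC CM 19 were listed, with 3 called higher and none lower (17.6% and 20.1%). At an unadjusted limma p under 0.05, 10 were higher and 4 lower in CRC-MPS CM, and 9 were higher and 5 lower in ESC CM. The median log2 fold changes were 0.33 and 0.12, beside -0.01 and -0.05 over all listed genes. SKP2, a ubiquitin ligase subunit that targets FOXO1, was 47.5 ± 2.56 TPM in CRC-MPS CM and 22.9 ± 4.94 TPM in Con (log2 fold change 1.04), and 52.6 ± 4.15 TPM in ESC CM (1.19). XPO1, the exportin that carries FOXO proteins out of the nucleus, was 238 ± 20.5 TPM in CRC-MPS CM and 119 ± 4.49 TPM in Con (0.99), and 0.84 higher on the log2 scale in ESC CM. The PI3K regulatory subunit gene PIK3R1 was 58.3 ± 1.73 TPM in CRC-MPS CM and 30.2 ± 4.04 TPM in Con (0.94), and 61.6 ± 3.11 TPM in ESC CM (1.00), while PIK3R2, a sister subunit, fell by 0.71 on the log2 scale in CRC-MPS CM and was not called in ESC CM (-0.49). Between the CM none of the 5 listed was called, and 2 were higher at an unadjusted limma p under 0.05.

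Among 12 arrestin relatives and NEDD4-type ligases, 7 were listed for CRC-MPS CM and 8 for ESC CM, and ARRDC2 was the single call in each, on the lower side, where 20.1% of all listed genes were called lower in each comparison. ARRDC2, an α-arrestin, had 42.0 ± 4.21 TPM in Con, 21.4 ± 1.09 TPM in CRC-MPS CM (log2 fold change -0.94, limma adjusted p = 0.000155) and 22.8 ± 1.19 TPM in ESC CM (-0.84, adjusted p = 0.000268). Of 3 listed between the CM none was called, and 2 were higher at an unadjusted limma p under 0.05.

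In the thioredoxin system and the MondoA family, 11 of 13 genes were listed in each comparison with Con, with 4 called higher and 2 lower for CRC-MPS CM, and 3 higher and 2 lower for ESC CM. The shares over all listed genes were 20.3% higher and 20.1% lower for CRC-MPS CM, and 17.6% and 20.1% for ESC CM. PRDX1, a peroxiredoxin, rose from 610 ± 47.1 TPM in Con to 1144 ± 47.3 TPM in CRC-MPS CM (log2 fold change 0.91) and by 0.90 in ESC CM. The thioredoxin reductase gene TXNRD1 was 422 ± 40.7 TPM in CRC-MPS CM and 249 ± 6.85 TPM in Con (0.75), and was not called in ESC CM (0.41). PRDX3, the mitochondrial peroxiredoxin, was 0.68 higher on the log2 scale in CRC-MPS CM and 0.66 higher in ESC CM. On the lower side were DDIT4, an inhibitor of mTORC1, with 114 ± 13.6 TPM in CRC-MPS CM and 270 ± 64.0 TPM in Con (-1.21), and MLXIPL, which encodes the MondoA relative ChREBP, with 0.377 ± 0.125 and 1.66 ± 0.104 TPM (-0.95). In ESC CM these log2 fold changes were -1.94 for DDIT4 and -1.09 for MLXIPL. MLXIP, the MondoA gene, was not called (log2 fold change -0.31 for CRC-MPS CM and -0.13 for ESC CM). Between the CM, 7 were listed and none was called, with 2 higher and 2 lower at an unadjusted limma p under 0.05.

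The genes whose pattern was closest to that of TRIB2 over the 9 libraries were found by the root mean square difference of log2(TPM + 1), each gene centred on its own mean, among 7977 genes. AC097478.1 (chr4:89551356-89726752, plus strand, annotated as antisense) was closest at 0.112, with 3.43 ± 0.484 TPM in Con, 5.97 ± 0.754 TPM in ESC CM and 9.67 ± 0.333 TPM in CRC-MPS CM. CEACAM5, a surface glycoprotein used as a tumor marker, was next at 0.153 (4.40 ± 0.506, 6.48 ± 0.834 and 11.2 ± 0.508 TPM in the same order), and AKR1B1, an aldose reductase, was at 0.172 with 0.405 ± 0.213, 0.776 ± 0.0250 and 2.53 ± 0.315 TPM. All 3 were lowest in Con and highest in CRC-MPS CM, an order that choosing them by likeness to TRIB2 favors. Reads of CEACAM5 and AKR1B1 may be shared with close paralogs, and no source used here says whether reads were assigned by strand, so reads of AC097478.1 and of genes on the other strand may be mixed.

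For TXNIP the closest genes were IFIT1, RSAD2 and IFI44L, each known as an interferon-induced gene. IFIT1, at a difference of 0.227, had 47.4 ± 14.4 TPM in Con, 4.73 ± 0.437 TPM in ESC CM and 4.79 ± 0.247 TPM in CRC-MPS CM. RSAD2, at 0.265, had 4.03, 9.37 and 7.66 TPM in the Con libraries, and IFI44L, at 0.273, had 6.93, 12.3 and 17.7 TPM. Library 1 of Con was the lowest for these 3 genes as for TXNIP, while library 3 was the highest only for IFI44L. Both CM were far below Con, with RSAD2 means of 0.170 and 0.152 TPM in ESC CM and CRC-MPS CM. Choosing genes by likeness to TXNIP favors such a shared pattern. ARRDC4 was rank 202 of the 7977 for TXNIP, at 0.737.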

How the data were processed

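The authors deposited 3 pairwise tables, each of 6 of the 9 HT29 libraries. Build hg38 and the tools STAR (2.6.1d), kallisto (0.46.0) and DESeq2 are credited to the submitters' processing notes, which give them no order. The deposited values per library were read as TPM per gene from the near-equal totals of the listed genes, so read depth is unknown and no count test could be run. The authors' deposited p-value was read only to check that every listed gene was under 0.05, and their fold changes and other test columns were not used. Rows without a gene name (631 for ESC CM against Con) were dropped before the fits. The 14, 13 and 4 names turned into dates (CRC-MPS CM against Con, ESC CM against Con, between the CM) were kept in them.

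For each table, limma 3.58.1 (R 4.3.3) was fitted to log2(TPM + 1) of all listed genes with the 2 groups as the design. Because listed genes had been selected on p, p-values were Benjamini-Hochberg adjusted over 20000 genes, with genes not listed taken as not significant; testing only selected genes still favors calls. Fold changes are on the log2(TPM + 1) scale. Values of a library present in 2 tables differed by at most 0.958% for the members. Coordinates are from GENCODE (GRCh38) and promoters from RefSeq.

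The members, gene lists and tests were chosen with earlier results of these data known. Genes named were all members, up to 4 called genes per list and comparison with the largest change, and the 3 genes most like TRIB2 and TXNIP listed in both comparisons with Con at a mean of at least 1 TPM; CEBPB in CRC-MPS CM, PIK3R2 in ESC CM, CDKN1A between the CM, FOXO6, CUL3, RBX1, MLXIP and COL1A1 were added after their values were seen. Lists of leukocyte and endothelial markers gave CD68 lower in both CM and no other call, and of the colon epithelial markers 1 was called higher and 7 lower against Con in each CM, and CEACAM5 higher between the CM. Alternatives were other pseudocounts, a level filter, adjustment over listed genes only, no minimum fold, a mean-variance trend, another scaling, a fit of all 9 libraries, replicate number as a block and each library left out. Python 3.11.15, pandas 2.3.3, numpy 2.4.6 and matplotlib 3.10.9 were used.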

Additional observations from a re-analysis of the deposited data

How the results depend on the processing

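No member changed direction: of 315 values of single members under the alternatives, 292 kept their side of the thresholds, 12 fell short of a call and 11 gained it. With a pseudocount of 5 the number of genes called fell from 4052 to 2387 for CRC-MPS CM against Con, from 3765 to 2211 for ESC CM against Con and from 38 to 18 between the CM, as the scale shrinks low genes. With no minimum fold it was 8185 and 8363 against Con. Adjusting over the listed genes only gave 141 calls between the CM, since fewer genes are adjusted over. Leaving out 1 library gave 3902 to 4192 calls for CRC-MPS CM, 3568 to 3822 for ESC CM and 8 to 85 between the CM: 85 without library 1 of CRC-MPS CM, 13 without library 2 and 8 without library 3, and 21, 13 and 18 without libraries 1, 2 and 3 of ESC CM. Members called were then 4 to 6, 5 to 6 and 0 to 1.

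Replicate numbers are shared by the groups, and deviations of same-numbered libraries had correlations of only -0.381 to 0.204. The main fits did not pair the samples, but so few libraries cannot settle whether the cultures were paired. With the replicate block, 14 genes and 0 members were called between the CM, where TRIB2 had an adjusted p of 0.0730 (limma). Over the other alternatives that kept all libraries, the limma adjusted p of TRIB2 ran from 0.00262 to 0.0388. The lowest came from adjusting over the listed genes only and the highest from a pseudocount of 0.1. FOXO3 and FOXO4 were not called for CRC-MPS CM with a pseudocount of 5 (log2 fold changes -0.55 and -0.53), and ARRDC3 was called for ESC CM with a pseudocount of 0.1 (-0.63) or median-ratio scaling (-0.60). In alternatives chosen after seeing the data, FOXO targets called without 1 library were 11 to 13 for CRC-MPS CM, 12 to 14 for ESC CM and 0 between the CM. Other settings gave 9 to 19, 8 to 19 and 0 to 1 of these targets. Depth is unknown, so what limits the low levels of ARRDC4 and TRIB2 could not be measured.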
